A study of Rattus norvegicus with 16 samples.

Results

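Regulators of G protein signalling (RGS proteins) were followed through RNA-seq libraries of the rat central amygdala. The members were 10 named genes, Rgs2, Rgs4, Rgs7, Rgs8, Rgs9, Rgs10, Rgs14, Rgs16, Rgs20 and Rgs22, out of 33294 genes in the count table. They are named RGS family genes, chosen by name with their fentanyl against saline values in these same 16 libraries already known. All 10 passed the filter on low counts, which kept 17856 genes. The table lists 21 RGS genes in all, of which 18 passed.

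The animals were adult offspring whose perinatal period included either fentanyl, an opioid agonist, or saline. Each exposure was represented by 8 offspring, 6 males and 2 females, and tissue was taken in adulthood on the day after the final IVSA session (the labels do not spell this abbreviation out), so both exposures share that procedure. Strain, exact age and litter are not stated in the sources used here, and nothing states whether offspring were littermates or whether tissue was pooled. The p-values below therefore measure only the spread between these samples.

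An agonist-bound receptor loads a heterotrimeric G protein with GTP, and the alpha subunit signals until it hydrolyses that GTP. The RGS domain speeds this hydrolysis, so RGS proteins shorten signals from opioid, dopamine, muscarinic and other receptors. The R4 proteins are small and act mainly on Gi/o and Gq, the R7 proteins act on Gi/o as stable complexes with the G beta subunit encoded by Gnb5, the R12 proteins include larger scaffolds, and the RZ proteins act on Gz and Gi. In striatal neurons an R7 protein, RGS9, is known for limiting dopamine and opioid receptor signalling.

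The libraries held 12879701 to 22426428 counts, and mitochondrially encoded genes took 8.44% to 17.7% of them, the highest share being in fentanyl male replicate 2. The 18 central amygdala markers were uneven. Penk, which striatal neurons also express, was at 423 CPM (counts scaled to library size) or more in every library. Sst was at 41.4 to 206 CPM and Prkcd at 11.2 to 33.3 CPM. Crh was at 0.52 to 17.2 CPM, Nts at 3.06 to 29.4 CPM, and Calcr was at 0 in 1 library. Markers of striatal medium spiny neurons were abundant as well, with Drd1 at 92.7 to 344 CPM. Library names number the saline males 1, 2 and 9 to 12, the fentanyl males 1 to 6, the fentanyl females 1 and 2 and the saline females 10 and 11. Saline males 1 and 2 (replicates 1 and 2) stood apart from saline males 9 to 12 (replicates 3 to 6) at 17.9% of genes (edgeR quasi-likelihood test, Benjamini-Hochberg adjusted p under 0.05), so values are given below with and without them. What the numbers mark is not stated. In the females every fentanyl number is low and every saline number is high, so exposure and number cannot be told apart there. The same holds wherever saline males 1 and 2 are left out, as fentanyl numbers 1 to 6 then face saline numbers 9 to 12.

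Of the 10 members, Rgs22 was lower after fentanyl, in every fentanyl library relative to every saline library. Rgs4 and Rgs9 had the highest fitted values in the other direction, 1.57-fold and 1.59-fold, with overlapping groups, and Rgs7 was almost level across the 16 libraries. Inside the saline males, a comparison that did not choose the members, Rgs2, Rgs8, Rgs9, Rgs10, Rgs14 and Rgs20 were lower in numbers 9 to 12 than in numbers 1 and 2. In bulk tissue, fewer cells of a type and less RNA per cell cannot be told apart.

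**Figure D1:**
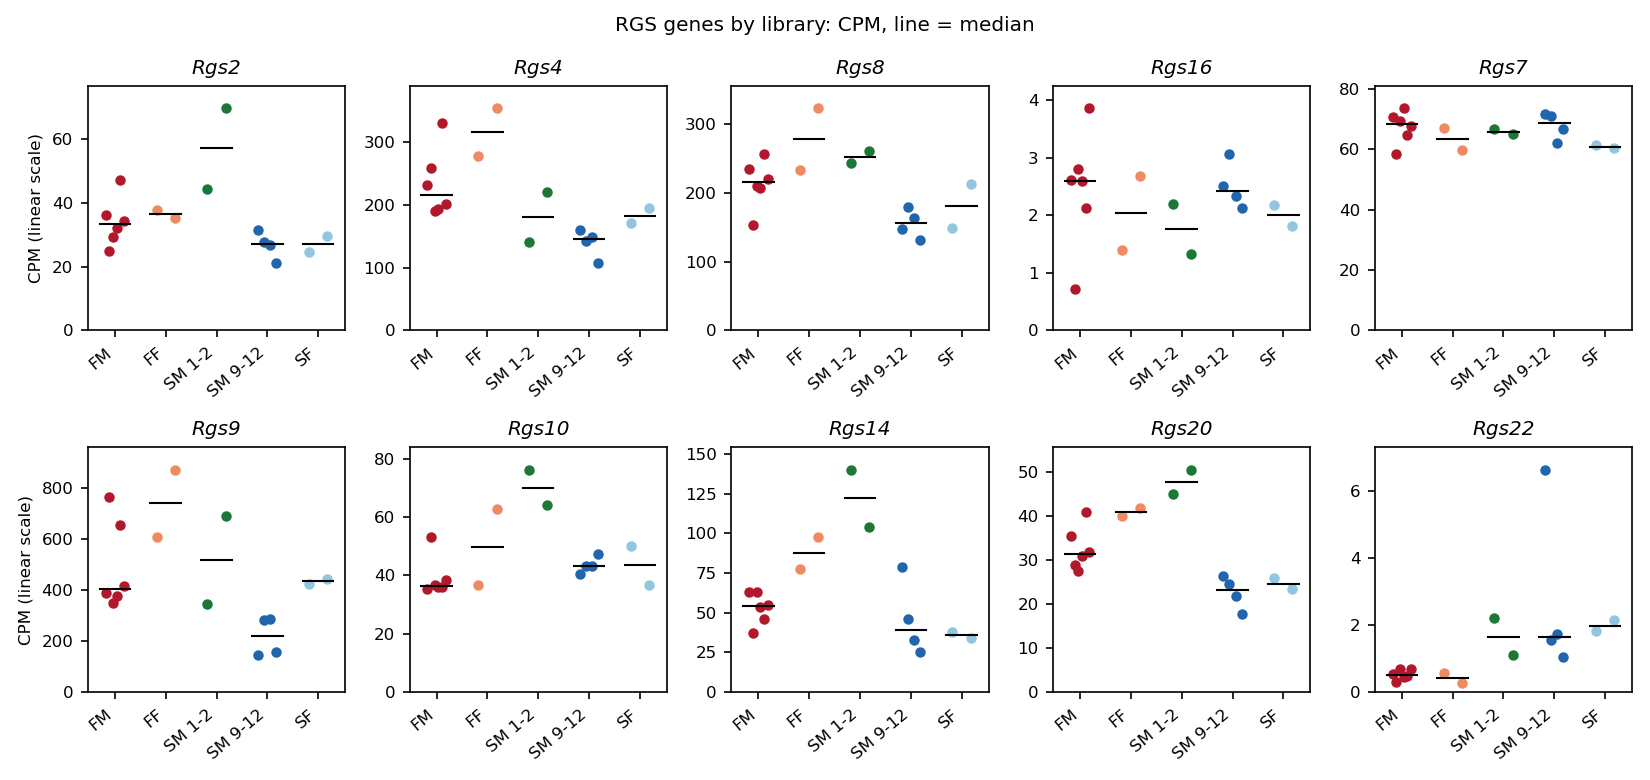
Expression of the 10 RGS members in each library, in CPM (vertical axis, from 0 in each panel), by group: FM fentanyl males, FF fentanyl females, SM 1-2 saline males with library numbers 1 and 2, SM 9-12 saline males with numbers 9 to 12, SF saline females. Each point is 1 library; Rgs22 in the 8 fentanyl libraries lies at or below 0.672 CPM, under all 8 saline libraries, and Rgs14 and Rgs20 are high in SM 1-2.

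The exposure values chose the members, so for them they are a description without a test. Over both sexes, 7 of the 10 had a fitted log2 fold change above 0 and 3 below, with a median of 0.06, beside a median of -0.01 and 47.7% of values above 0 over all genes tested. Over all genes, 14 passed an adjusted p of 0.05 in the edgeR fit with sex as a covariate, 0.0784% of those tested, and 1 member, Rgs22, was among them. Without saline males 1 and 2, 1226 genes passed, with Rgs4, Rgs8, Rgs9, Rgs20 and Rgs22 among them, and without saline males 9 to 12, 4 passed, with no member. Nothing is read from these counts, because the choice of members used the same contrast. In the fit without saline males 1 and 2, exposure and library number also cannot be told apart.

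Rgs22 lies outside the 4 classical subfamilies and encodes a large protein known mainly from testis. Its CPM was 0.549, 0.288, 0.672, 0.432, 0.471 and 0.672 in fentanyl males 1 to 6, and 0.557 and 0.268 in fentanyl females 1 and 2. In saline males it was 2.20 and 1.10 in numbers 1 and 2, and 6.63, 1.56, 1.74 and 1.04 in numbers 9, 10, 11 and 12. Saline females 10 and 11 had 1.81 and 2.13. The groups did not overlap: the highest fentanyl value, 0.672, lay under the lowest saline value, 1.04, a pattern found in this direction at 0.0392% of genes. These are low levels, resting on 4 to 12 counts in a fentanyl library and 18 to 158 in a saline library.

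The fitted log2 fold change of Rgs22 was -2.21 ± 0.39 (SE), with -2.21 in males and -2.24 in females. Saline male replicate 3 held the highest value, and without it the change was -1.73. The sign was the same under all 28 alternative settings. The adjusted p was under 0.05 in 11 of the 28 and not in the others. These settings refit the contrast that chose the gene, so they are no further test of it. Against saline males 1 and 2 the fentanyl males had a log2 fold change of -1.64, and against saline males 9 to 12 one of -2.42. A near copy, Rgs22l (LOC102548035 in the table), held 0 to 8 counts. With the copy's counts added, the highest fentanyl value was 0.856 CPM and the lowest saline value 1.22, still without overlap.

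Ependymal and motile cilia genes were followed beside Rgs22. Of 22 such markers 16 were tested. Their exposure log2 fold changes had a median of -0.28, 13 were below 0, 0 passed the edgeR test, and the summed level was 53.0 to 78.3 CPM in fentanyl and 57.8 to 105 CPM in saline libraries. The highest sum, like the highest Rgs22, was in saline male replicate 3. That library also had the highest mean log2 CPM of a list of glutamatergic neuron markers, 4.82. Among the defining ependymal and cilia genes, Tmem212 was at 0 in all 16 libraries and Foxj1, the master regulator of motile cilia, was at 2.12 to 4.39 CPM. Set against the ependymal list mean in the same library (difference of log2 CPM), Rgs22 was at -2.98 to -1.71 in fentanyl and -1.49 to 0.55 in saline libraries, which do not overlap. With the ependymal list mean as a covariate its log2 fold change was -1.72. Both values reuse the exposure difference that chose the gene, whose CPM alone already did not overlap, so they are a description and no test.

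In the R4 subfamily, Rgs4, which limits Gi/o and Gq signalling in cortical and striatal neurons, was at 190 to 353 CPM (median 245) in fentanyl and 107 to 220 CPM (median 154) in saline libraries. The 2 ranges overlap: fentanyl males 3, 4 and 6, at 190, 193 and 201, lie below saline male replicate 2 at 220. Its log2 fold change was 0.65 ± 0.14, with 0.61 in males and 0.79 in females. Against saline males 1 and 2 the fentanyl males were at 0.37, and against saline males 9 to 12 at 0.74. Over 28 alternatives the value ranged from 0.43 to 0.76.

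Rgs8, a Gi/o regulator that speeds the opening and closing of GIRK potassium channels, was at 153 to 323 CPM after fentanyl and 131 to 261 CPM after saline. Its log2 fold change was 0.30 ± 0.16, and the fentanyl males lay on opposite sides of the saline males, at -0.24 against numbers 1 and 2 and at 0.46 against numbers 9 to 12. Rgs2, known for its selectivity for Gq and as an activity-induced gene, had a value of 0.02 ± 0.21, which was again made of opposite parts, -0.75 and 0.34. Rgs16, also a Gi/o regulator, was low, at 0.719 to 3.86 CPM over all libraries, and its value was 0.10 ± 0.25.

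None of the other R4 genes tested passed the edgeR test for exposure. Of the 10 listed, Rgs13, Rgs18 and Rgs21 were near 0 and not tested. Rgs1, known from lymphocytes and microglia, had the lowest value of the 7 tested, -0.59, at 1.51 CPM or less in every library.

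Rgs9, the R7 member, was at 350 to 872 CPM (median 512) in fentanyl and 144 to 690 CPM (median 315) in saline libraries. The ranges overlap widely. Saline male replicate 2, at 690, was above 6 of the 8 fentanyl libraries, and the log2 fold change of 0.67 ± 0.28 moved to 0.95 without it. Without fentanyl male replicate 2 the change was 0.56. The fentanyl males were level with saline males 1 and 2 (-0.07) and above saline males 9 to 12 (1.18). All 19 tested striatal markers had exposure values above 0, with a median of 0.48 and 0 past the edgeR test, and their summed level was 6314 to 12871 CPM in fentanyl and 2691 to 10377 CPM in saline libraries. Of the 21 listed, Serpina9 was at 0 in all 16 libraries and Ido1 in 13. With the striatal list mean as a covariate Rgs9 was at 0.19.

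Rgs7, the R7 member most widely used across brain regions, was at 58.5 to 73.5 CPM in fentanyl and 60.3 to 71.8 CPM in saline libraries, with a value of 0.02 ± 0.06. Its standard error is the smallest of the 10. The R7 genes Rgs6 and Rgs11 were at -0.28 and 0.08. Among the partners that stabilise R7 proteins or hold them at the membrane, Rgs7bp had the highest value, 0.50 ± 0.16, and the orphan receptor Gpr158 had 0.44 ± 0.14. Gnb5 was at 0.22 and Gpr179 had the lowest value, -0.00. Of the 5 partners, Rgs9bp was not tested, and 0 of the 4 tested passed the edgeR test.

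The R12 members are Rgs10, a small regulator of Gi found in neurons and microglia, and Rgs14, a scaffold that also binds Ras and Rap and is known for restraining plasticity in hippocampal area CA2. Rgs10 was at 35.2 to 62.8 CPM after fentanyl and 36.8 to 76.2 CPM after saline, with a value of -0.26 ± 0.16, which moved to -0.15 without saline male replicate 1. Fentanyl males were at -0.84 against saline males 1 and 2 and at -0.15 against numbers 9 to 12, and without saline males 1 and 2 the value over both sexes was -0.042. Against the mean of the microglia list in the same library (difference of log2 CPM) Rgs10 was at 1.13 to 2.42 in fentanyl and 0.98 to 2.40 in saline libraries, which overlap. Rgs14 was at 37.2 to 97.7 CPM after fentanyl and 25.0 to 140 CPM after saline, and its value of -0.01 ± 0.34 came from unlike parts. Fentanyl males were at -1.20 against saline males 1 and 2 and at 0.22 against numbers 9 to 12, while females were at 1.28. Rgs20, the RZ member and a regulator of Gz, was at 0.24 ± 0.20, with -0.55 and 0.52 for the same pair of male comparisons. Outside the members, Rgs12 had the highest exposure value of the R12 list, 0.06, and Rgs17 the lowest of the RZ list, 0.01.

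**Figure D2:**
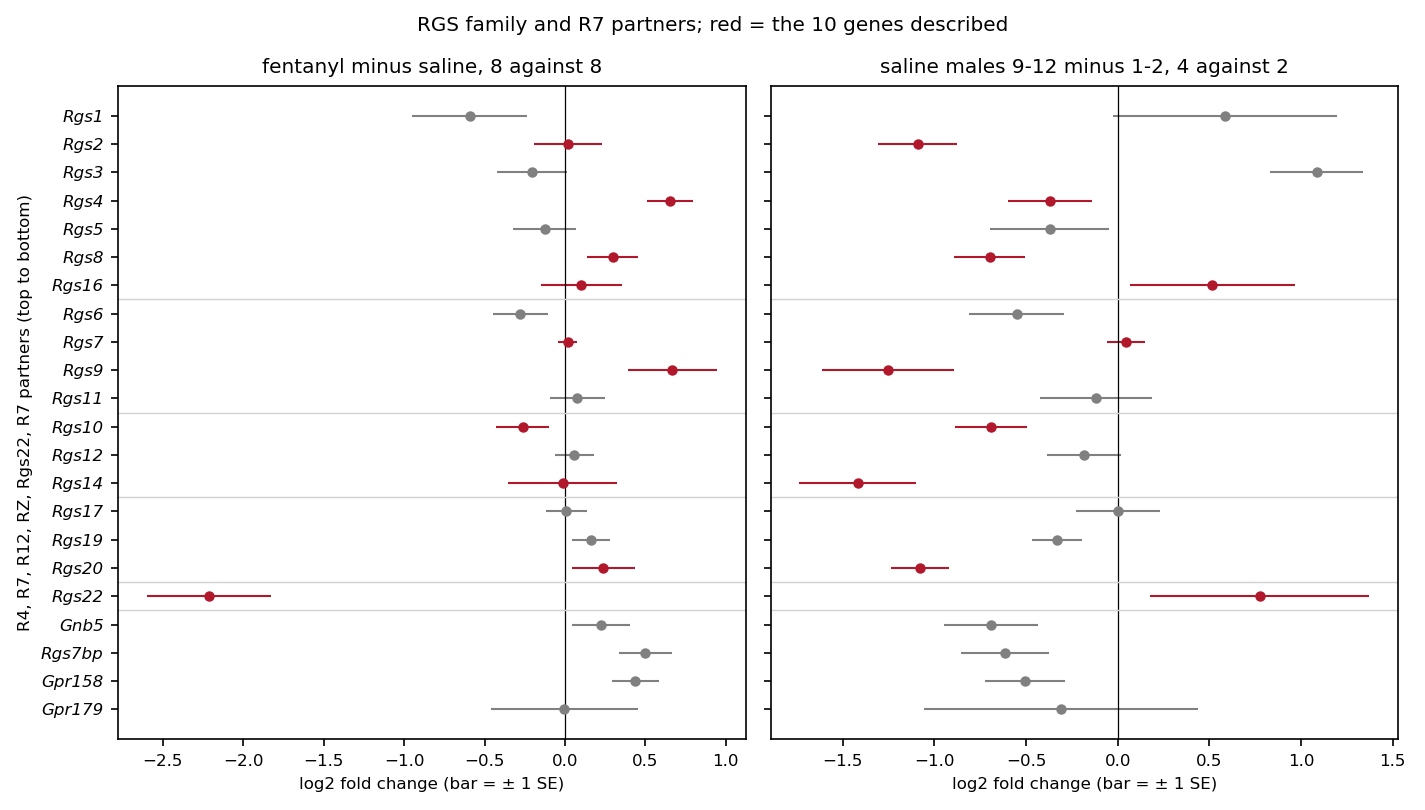
Fitted log2 fold change (horizontal axis) of each tested RGS gene and R7 partner, with bars of 1 standard error, for fentanyl against saline over both sexes and for saline males 9 to 12 against saline males 1 and 2. Rgs22, at -2.21, lies farthest from 0 for exposure; in the second comparison Rgs14 is lowest, at -1.42, and Rgs3 highest, at 1.08.

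G protein alpha subunits and GIRK channels, the partners downstream of the receptors, gave no exposure calls. Of 12 alpha subunits tested 6 were above 0 and 6 below (median -0.03), and of 4 GIRK channels 1 was above 0 and 3 below (median -0.09), with 0 past the edgeR test in both lists.

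Whether the exposure effect differed by sex was tested by the interaction in the edgeR fit of the 4 groups. Over all genes 0 passed (0%), with 1470 at an unadjusted p under 0.05, and with DESeq2 4 passed. Of the 10 members 0 passed, by edgeR, DESeq2 or limma voom, and 8 had a value above 0, with a median of 0.31. Over all genes 49.6% of values were above 0, with a median of -0.0043. Rgs14 had the widest difference. In females it was at 77.6 and 97.7 CPM after fentanyl and at 38.0 and 34.3 CPM after saline. In males it was at 63.0, 37.2, 63.2, 53.8, 45.8 and 54.9 CPM after fentanyl, and at 140 and 104 CPM in saline numbers 1 and 2 and 78.8, 45.7, 32.6 and 25.0 CPM in numbers 9 to 12. The females did not overlap, which in this direction held for 24.1% of genes with 2 against 2, and the males did overlap.

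The Rgs14 interaction, female effect minus male effect, was 1.70 ± 0.67 on the log2 scale in the edgeR fit (unadjusted p = 0.022, adjusted p = 0.570). It was the only member under an unadjusted p of 0.05, a level that 8.23% of all genes reached. Without saline males 1 and 2 the Rgs14 interaction was 1.06. Rgs19, an RZ gene outside the members, had an interaction of 0.71 ± 0.22 with a smaller p (edgeR unadjusted p = 0.0048, adjusted p = 0.570). For Rgs22 the interaction was -0.04 ± 0.85, an error too wide to speak of equal effects. With 2 females a group, simulated 2-fold differences were recovered by this test in 29.9% of cases. The simulation left out the difference between the saline male sets, so recovery in these data can be lower.

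Between females and males, with exposure as a covariate, 10 genes passed the edgeR test (0.056%) and 0 members were among them, nor did any pass with DESeq2 or limma voom. The smallest unadjusted p of the 10 belonged to Rgs4. It was at 171 to 353 CPM in the 4 females and 107 to 330 CPM in the 12 males. Its female minus male log2 difference was 0.35 ± 0.16 (edgeR adjusted p = 1.00). The only other RGS gene under 0.05 unadjusted was Rgs17, an RZ gene, at -0.38 (edgeR adjusted p = 1.00).

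Inside the saline males, the libraries numbered 9 to 12 were compared with those numbered 1 and 2. This comparison uses no fentanyl library and did not choose the members, although the earlier results on these data had shown that the sets differ. Of the 10 members, 6 were lower in numbers 9 to 12 in the edgeR fit of 5 groups, 0 were higher. Of the 8 other RGS genes tested only Rgs3 passed, and it was higher. Of all genes tested, 8.27% were lower and 9.66% higher. The same 6 lay wholly below numbers 1 and 2, which held for 22.6% of genes. The median over the members was -0.69, and 0.01 over all genes.

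Among the R4 members, Rgs2 was at 44.4 and 69.6 CPM in numbers 1 and 2 and at 31.4, 27.7, 26.7 and 21.1 CPM in numbers 9 to 12. It fell 2.13-fold (log2 change -1.09 ± 0.22, edgeR adjusted p = 0.0052). Rgs8 went from 243 and 261 CPM to 148, 179, 163 and 131 CPM (-0.70 ± 0.19, edgeR adjusted p = 0.023). Rgs4 did not pass, at 141 and 220 CPM against 160, 142, 148 and 107 CPM. Rgs3, an R4 gene outside the 10 and a regulator of Gi and Gq, moved the other way, from 39.7 and 42.5 CPM to 51.3, 82.7, 111 and 104 CPM (1.08 ± 0.25, edgeR adjusted p = 0.010).

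Rgs9 went from 345 and 690 CPM to 144, 284, 285 and 157 CPM (-1.25 ± 0.36, edgeR adjusted p = 0.026). Rgs7 stayed between 62.0 and 71.8 CPM in all 6 saline males, and its difference was 0.04 ± 0.10. The 4 tested R7 partners were all below 0 (median -0.56) and 0 passed the edgeR test, Gnb5 being lowest at -0.69.

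Both R12 members fell. Rgs14 went from 140 and 104 CPM to 78.8, 45.7, 32.6 and 25.0 CPM, the widest difference of the 10 (2.67-fold; -1.42 ± 0.32, edgeR adjusted p = 0.0090). Rgs10 went from 76.2 and 64.0 CPM to between 40.6 and 47.2 CPM (-0.69 ± 0.20, edgeR adjusted p = 0.025). Rgs20 went from 45.0 and 50.6 CPM to 26.3, 24.5, 21.9 and 17.7 CPM, with the smallest p of the members (-1.08 ± 0.16, edgeR adjusted p = 0.0012). Rgs16 and Rgs22 did not pass, at 0.52 ± 0.45 and 0.77 ± 0.60.

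**Figure D3:**
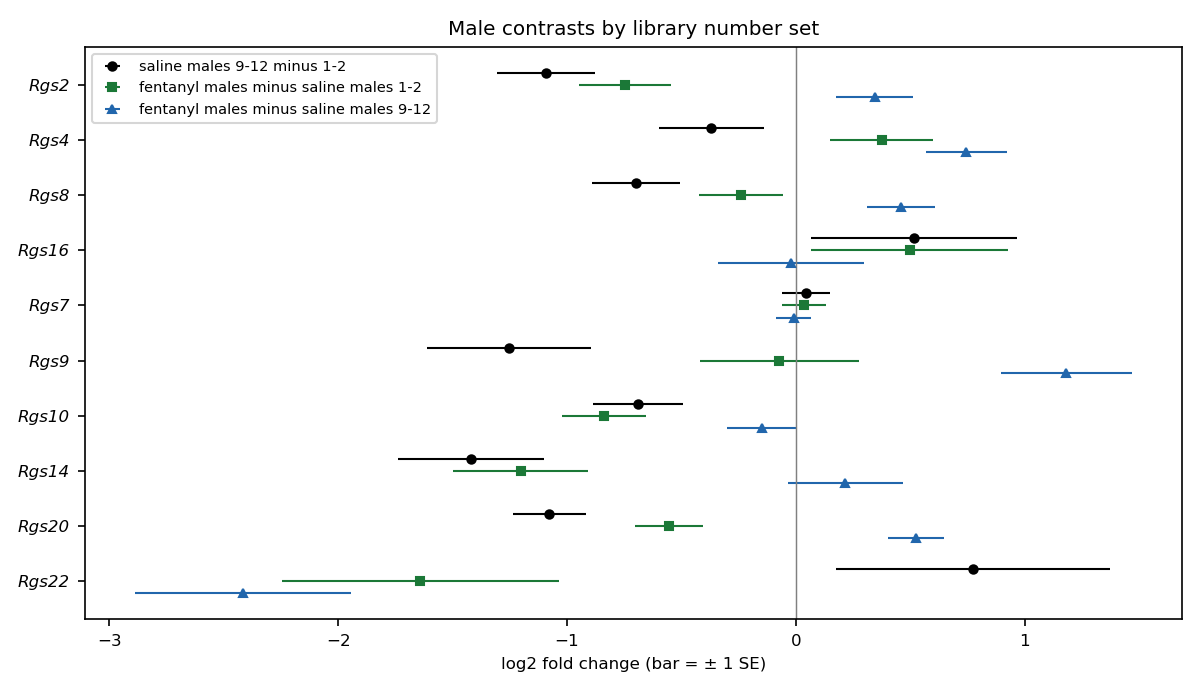
Fitted log2 fold change (horizontal axis, bars of 1 standard error) of the 10 RGS members in 3 male comparisons: saline males with library numbers 9 to 12 against numbers 1 and 2 (circles), fentanyl males against saline males 1 and 2 (squares) and against saline males 9 to 12 (triangles). Rgs14 lies at -1.42, -1.20 and 0.22 in that order, while Rgs22 is below 0 in both comparisons with fentanyl males, at -1.64 and -2.42. The 3 comparisons share libraries.

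Leaving out saline male replicate 1 or 2 leaves 1 library in that arm, assumed to vary like the other groups, so calls can be lost through power alone. Without replicate 1, 3 members were still called (Rgs2, Rgs9 and Rgs20), and without replicate 2 only Rgs20, with 1235 and 193 genes called in all in place of 3201. The values of all 6 stayed below 0 in each of the 16 fits that left out 1 library. Without replicate 2, Rgs9 was at -0.67, Rgs2 at -0.73 and Rgs10 at -0.81, and without replicate 1 Rgs14 was at -1.19. Rgs20 passed in each of those fits.

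Cell type markers moved with the same 2 sets. All 19 tested striatal markers were lower in numbers 9 to 12 in value and 18 passed (median -1.23), their summed level being 7412 to 10377 CPM in numbers 1 and 2 and 2691 to 4672 CPM in numbers 9 to 12. All 17 tested myelin markers were higher in value and 15 passed (median 1.42), at 7759 to 10417 CPM against 12138 to 35240 CPM. Of 18 activity-induced genes 10 were lower, among them Arc, Npas4, Fosb and Junb, and 1, Nr4a2, was higher. Of 19 microglia markers 6 were higher and 0 lower, opposite to Rgs10. Of 12 G protein alpha subunits, Gna12 and Gnas were higher and Gnal lower (-1.05), the last being the subunit that couples striatal dopamine D1 receptors to adenylyl cyclase. Of 4 GIRK channels 0 passed in the edgeR fit. Of 13 glutamatergic markers tested 4 were higher and 1 lower (Slc17a6, Neurod6, Tbr1, Nrn1 and Necab2 passed), and of 18 central amygdala markers 2 were higher and 2 lower (Cyp26b1, Penk, Pdyn and Sema3c passed). Of 16 ependymal markers 2, Hydin and Enkur, were lower, and of 15 endothelial and mural markers 0 passed. With the striatal list mean as a covariate, an alternative added after the data were seen, 0 members passed and 2 genes passed in all. Rgs9 was then at 0.39 ± 0.45, Rgs8 at -0.01 ± 0.29, Rgs2 at -0.47 ± 0.38 and Rgs20 at -0.68 ± 0.28. Rgs10, at -0.71 ± 0.38, and Rgs14, at -2.0 ± 0.60, were as far from 0 as without the covariate or farther, with wider errors. With the myelin list mean as a further covariate Rgs14 was at -0.81. The striatal list mean itself did not overlap between the sets. It was 7.80 to 8.24 in numbers 1 and 2 and 6.21 to 7.06 in numbers 9 to 12 (mean log2 CPM). Covariate and set are therefore hard to separate, and nothing is read from the lost calls or the shifted values.

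Promoter sequences are shown for 4 members: Rgs2, Rgs9 and Rgs14, which passed as lower between the sets, and Rgs4, which did not pass (-0.37 ± 0.23). Whether Rgs4 differed from the other members shown was not tested. The sequences are the 250 bases before the annotated start, 5′ to 3′ on the gene's strand, from RefSeq on GRCr8 (a build other than that of the counts). Capitals mark the CCAAT box, the CRE half-site (TGACG), the GC box (GGGCGG) or the TATA box (TATAAA), on either strand.
Rgs2, chr13:58352667-58352916, minus strand: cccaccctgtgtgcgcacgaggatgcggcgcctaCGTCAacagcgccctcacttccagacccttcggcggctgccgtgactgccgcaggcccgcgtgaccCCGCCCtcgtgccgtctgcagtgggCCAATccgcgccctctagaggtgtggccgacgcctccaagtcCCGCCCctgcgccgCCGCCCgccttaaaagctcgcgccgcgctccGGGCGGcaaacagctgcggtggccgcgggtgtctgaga
Rgs4, chr13:84475885-84476134, minus strand: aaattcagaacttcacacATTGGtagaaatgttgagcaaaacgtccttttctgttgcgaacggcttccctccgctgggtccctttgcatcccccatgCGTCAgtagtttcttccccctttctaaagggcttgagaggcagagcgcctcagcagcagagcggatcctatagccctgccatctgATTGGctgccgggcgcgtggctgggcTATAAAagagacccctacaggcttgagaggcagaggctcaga
Rgs9, chr10:94770388-94770637, minus strand: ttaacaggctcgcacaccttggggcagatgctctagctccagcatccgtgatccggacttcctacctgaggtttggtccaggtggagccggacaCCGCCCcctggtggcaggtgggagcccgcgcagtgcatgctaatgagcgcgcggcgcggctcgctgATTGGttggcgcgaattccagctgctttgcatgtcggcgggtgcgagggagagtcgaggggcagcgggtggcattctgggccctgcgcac
Rgs14, chr17:9268234-9268483, minus strand: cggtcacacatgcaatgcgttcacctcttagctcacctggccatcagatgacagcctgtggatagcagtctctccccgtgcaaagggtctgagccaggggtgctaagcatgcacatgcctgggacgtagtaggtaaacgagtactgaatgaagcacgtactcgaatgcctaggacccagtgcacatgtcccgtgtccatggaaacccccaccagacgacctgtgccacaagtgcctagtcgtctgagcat

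The CRE half-site TGACG, a short form of the element bound by CREB, was found in Rgs2 and Rgs4 and in 18.2% of 33469 promoters of the same length. The full element TGACGTCA was in none of the 8 members with an entry, and in 1.59% of promoters. CCAAT was in 5 members, Rgs2, Rgs4, Rgs8, Rgs9 and Rgs16 (34% of promoters), and GGGCGG in 5, Rgs2, Rgs7, Rgs9, Rgs10 and Rgs16 (30.5%). TATAAA was in Rgs4 alone (12.9%) and the E-box CACGTG in Rgs7 alone (5.59%). The Rgs14 window held none of these letters. Rgs20 and Rgs22 had no entry. On chromosome 13 lie 5 members, Rgs2, Rgs4, Rgs7, Rgs8 and Rgs16; Rgs8 and Rgs16 are neighbours there, and of that pair Rgs8 fell between the sets while Rgs16 did not pass. Rgs4 is the neighbour of Rgs5.

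How members and cell type lists move together was tested over the 16 libraries after subtracting the mean of each of the 4 groups, which removes the exposure difference. Of 60 pairs (10 members by 6 lists), 10 passed by Pearson's r and 4 of these also by Spearman's rho (100000 permutations within groups, adjusted over the 60). Only members were correlated, so no share over all genes stands beside these counts. The saline male sets, which differed at 17.9% of genes, stay inside 1 centred group. Whether other genes follow the lists as often was not tested, so nothing particular to RGS genes is read from these counts. Rgs9 followed the striatal list (r = 0.89, permutation p = 0.00057, adjusted p = 0.011; rho = 0.84, permutation p = 0.0012, adjusted p = 0.035). Rgs8 did so too (r = 0.84, permutation p = 0.00057, adjusted p = 0.011; rho = 0.83, permutation p = 0.0018, adjusted p = 0.035). Rgs20 ran against the myelin list (r = -0.82, permutation p = 0.0013, adjusted p = 0.020; rho = -0.79, permutation p = 0.00069, adjusted p = 0.035). Rgs4 followed the activity-induced genes (r = 0.69, permutation p = 0.0032, adjusted p = 0.027; rho = 0.70, permutation p = 0.0032, adjusted p = 0.049).

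Leaving out the 2 libraries farthest from the median of the list mean gave r = 0.76 for Rgs9, 0.78 for Rgs8, -0.83 for Rgs20 and 0.73 for Rgs4. Without saline males 1 and 2 the same pairs had r = 0.79, 0.66, -0.63 and 0.64, and 0 of the 60 pairs passed by r in the adjusted permutation test. Rgs14 against the myelin list had the strongest r, -0.93 (permutation p = 0.00019, adjusted p = 0.011), while its rho of -0.84 (permutation p = 0.011) had an adjusted p of 0.070. Rgs22 against the ependymal list gave r = 0.65 and rho = 0.37 (adjusted permutation p = 0.15 and 0.41), and r = 0.17 without saline male replicate 3. Against the glutamatergic list Rgs22 gave r = 0.78 and rho = 0.39 (adjusted permutation p = 0.10 and 0.35), and r = 0.31 without that library.

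**Figure D4:**
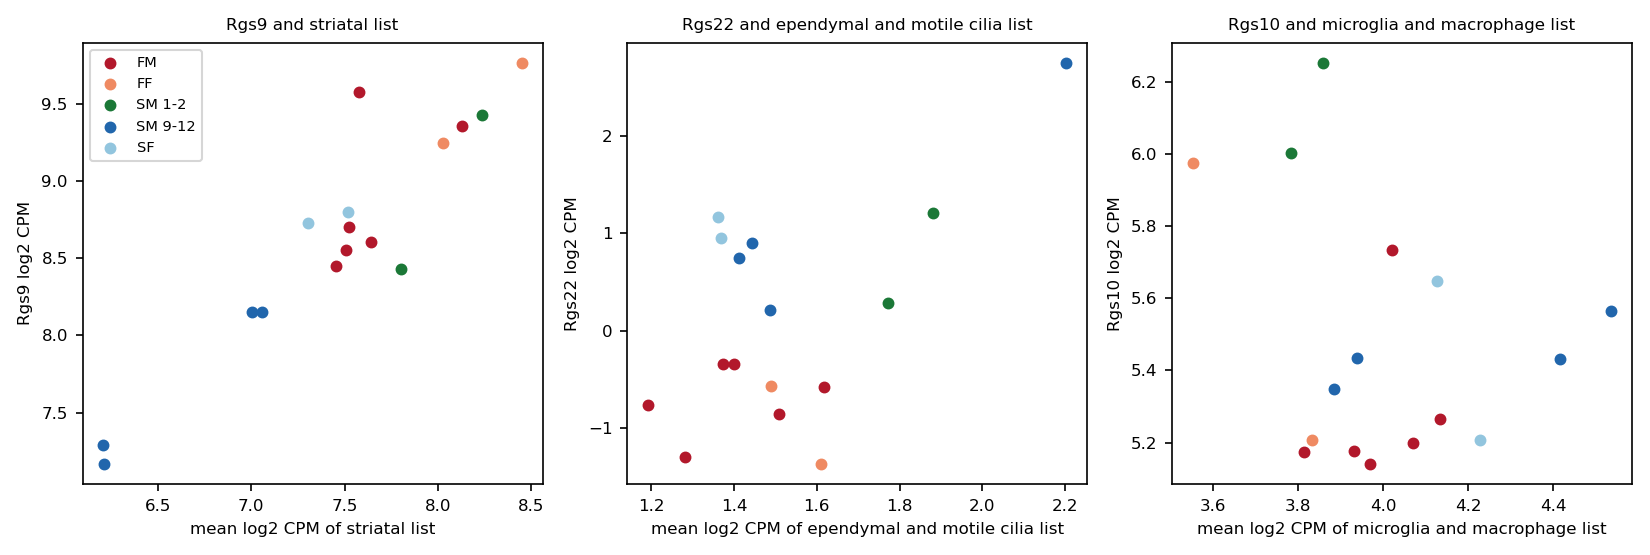
Log2 CPM of Rgs9, Rgs22 and Rgs10 (vertical axes) against the mean log2 CPM of the striatal, ependymal and microglia lists (horizontal axes), 1 point per library, without centring: FM and FF fentanyl males and females, SM 1-2 and SM 9-12 saline males by library number, SF saline females. Rgs9 is mostly high where the striatal list is high, in both exposures. Fentanyl male replicate 2 is apart, with Rgs9 at 9.58 and a list mean of 7.57. Rgs22 in the fentanyl libraries differs from the ependymal list mean by -2.98 to -1.71.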

How the data were processed

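Polyadenylated RNA from central amygdala of 16 rats was sequenced after Trizol extraction and NEBNext library preparation, per the labels' protocols. The authors deposited 1 table of raw counts per gene. Trimmomatic, STAR, HTSeq, DESeq2 and the build rn7 are named in the submitters' processing notes, without versions. Neither strand handling nor the annotation is stated, so counts of overlapping genes and near copies are uncertain.

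Groups came from the labels. Counts were fitted with edgeR 4.0.16 (R 4.3.3) after its expression filter for 4 groups and TMM scaling, with p-values adjusted by Benjamini-Hochberg over 17856 genes. CPM are TMM-scaled, and log2 CPM use a prior count of 2. Levels are not compared between genes, as transcript lengths were not used. DESeq2 1.42.0, limma 3.58.1 (voom with quality weights), other filters, covariates and left-out libraries were alternatives.

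The 10 members and the 16 gene lists (193 entries, 2 not found and 2 matched by an older symbol) were chosen with earlier results of these data known. By rule all members are described; other RGS genes and R7 partners are named if past a test or at the extremes of exposure change in their list, and marker lists by counts and genes past the test. Rgs5, Rgs11 and Rgs19, the sex value of Rgs17 and some marker levels were named for context after their values were seen. Tested on simulated data with 2-fold changes, the fits recovered 92.5% (exposure), 82.1% (sex), 50.7% (library number sets) and 29.9% (interaction). The simulated spread was that within the 5 groups, without the difference between the saline male sets. Recovery in the real exposure, sex and interaction fits can therefore be lower. No pair of libraries among 120 agreed within counting noise (smallest chi-square per gene 3.92).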

Additional observations from a re-analysis of the deposited data

Results flagged for a closer look

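Of 20 groups of 6 male libraries examined (10 members in each exposure), 3 held a library far from the other 5, its gap to the nearest one taking a share of the group's range above Dixon's 95% critical value; chance gives about 1 in 20. Rgs9 was at 690 CPM in saline male replicate 2, where the nearest saline male was at 345 (gap share 0.631). Rgs10 was at 53.1 CPM in fentanyl male replicate 2, where the nearest fentanyl male was at 38.3 (0.823). That library also had the highest mitochondrial share, 17.7%, and a link was not tested. Rgs22 was at 6.63 CPM in saline male replicate 3, where the nearest saline male was at 2.20 (0.792).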

How the results depend on the processing

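With 2 females a group, low counts for Rgs22 and 2 saline males with low library numbers, these values have little depth of replication. Over all genes the exposure count of 14 became 87 with DESeq2, 1031 with voom, 22 with the ependymal mean as a covariate, 1226 without saline males 1 and 2, 4 without saline males 9 to 12, 7 with males only, and 9 to 29 on leaving out 1 library. The count in males (7) was 43 with DESeq2, 87 with voom and 4 to 9 on leaving out 1 library. In females (0) it was 20 with DESeq2 and 0 to 5 on leaving out 1 library, and for the interaction (0) 4 and 0 to 5. The count between the number sets (3201) was 5730 with voom, 2116 with the 6 saline males only, 2 with the striatal mean and 0 with the striatal and myelin means as covariates (both added after seeing the data), and 193 to 4229 on leaving out 1 library; the 6 members called lower became 0 with either covariate fit and 1 to 6 on leaving out 1 library, while Rgs2, Rgs10, Rgs14 and Rgs20 kept a value below 0 in all 23 alternatives (with both covariates -0.15, -0.65, -0.81 and -0.30). With the 6 saline males only, the edgeR adjusted p was 0.063 for Rgs9 and 0.059 for Rgs14. The 10 member and list pairs past the threshold by r became 0 without saline males 1 and 2.

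Fentanyl and saline libraries with the same replicate number (not library number) did not deviate together: over 6 male pairs r was -0.069 to 0.21, with 2 over 0.1, and with 2 females a group r is 1 value fixed by centring, -0.17. Library numbers shared between the sexes were not checked. With the replicate block the exposure count was 2 and Rgs22 was at -2.04.

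Some signs turned, among them those of Rgs8 and Rgs9, which had passed between the number sets. For exposure over both sexes, the 28 alternatives gave -0.33 to 0.37 for Rgs2 and -0.42 to 0.54 for Rgs14. They gave -0.00030 to 0.073 for Rgs7, -0.032 to 0.31 for Rgs16 and -0.10 to 0.59 for Rgs20. The Rgs8 value kept its sign, at 0.0056 to 0.51. For sex, Rgs2 was at 0.036 with voom and 0.065 without saline males 1 and 2, and Rgs22 at 0.017 with voom. For the interaction without saline males 1 and 2, Rgs9 was at -0.42, Rgs16 at 0.042 and Rgs22 at 0.18. Between the number sets, the striatal and myelin covariates gave Rgs4 0.77, Rgs7 -0.024, Rgs8 0.32 and Rgs9 0.014, and the striatal covariate alone gave Rgs4 0.47, Rgs7 -0.11, Rgs9 0.39 and Rgs22 -1.27. Leaving out 1 library, sex gave -0.20 to 0.20 for Rgs10, -0.30 to 0.27 for Rgs14, -0.079 to 0.14 for Rgs20 and -0.43 to 0.11 for Rgs22. The interaction gave -0.0062 to 0.34 for Rgs4, -0.034 to 0.13 for Rgs7, -0.25 to 0.37 for Rgs9, -0.65 to 0.29 for Rgs16 and -0.71 to 0.40 for Rgs22, and the number sets gave -0.17 to 1.34 for Rgs22. The cause was not tested.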
